A study of Homo sapiens with 16 samples.

Results

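The subject here is 6 tubulin genes, TUBB6, TUBB3, TUBB2B, TUBA1A, TUBA4A and TUBG1, 6 of 20276 genes measured in xenograft tumours of the human prostate cancer line PC-3. They were chosen by name from the annotated expression matrix, and a large difference of TUBB6 between tumours with long and short telomeres was part of that choice. Each gene's value was the mean of the probe sets that named it alone. The long against short differences of these 6 genes are therefore given as descriptions, without a test. Tests are given for the Cre comparisons within each telomere status and for the difference between the telomere comparisons of the pairs. The stated reason for the choice, the TUBB6 difference between long and short telomeres, did not use these comparisons. The genes were, however, chosen with earlier results of these data known, so independence of these tests from the choice is not established.

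RNA was measured on Affymetrix expression arrays, 1 per tumour, in 16 subcutaneous tumours from 4 lines, with 4 independent tumours per line. LhTERTL_cre tumours had long telomeres, carried the label cre+ and no exogenous hTERT, the catalytic subunit of telomerase. LhTERTL tumours had long telomeres and exogenous hTERT. The control tumours mock_cre, labelled cre+, and mock both had short telomeres and no exogenous hTERT. All 4 lines were grown without further treatment in female nude mice on a BALB/c background, 5 weeks old at injection of 1000000 cells, and tumours were taken at a diameter of at least 5 mm. The promoter that drove hTERT is not given in the sources used here, and each group is a single line. Telomere status therefore cannot be told apart from any other difference between lines, and a p-value reflects only how far tumours of one line vary.

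Each deposited value is a log2 signal from which the median of its probe set was taken away. These values give differences between tumours and no levels, so neither the order of the genes by abundance nor the identity of PC-3 by its absent markers could be judged. In bulk tumour RNA, fewer cells of a type and less RNA per cell cannot be told apart. The arrays carry human probes, which detect RNA of the mouse host only by cross-hybridisation. Of the array controls, the centred log2 3'/5' signal ratio, a sign of RNA quality, averaged -0.07 ± 0.21 in LhTERTL_cre, -0.08 ± 0.15 in LhTERTL, 0.64 ± 0.38 in mock_cre and 0.07 ± 0.18 in mock (SD, n = 4 each). The poly-A spike signal was high on 5 arrays, 2 of them in mock_cre and 1 in each of the other lines. The 4 arrays per line limit the precision.

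Microtubules are polymers of alpha- and beta-tubulin dimers that bind GTP, grow and shrink at their ends, form the mitotic spindle and serve as tracks for vesicles. Gamma-tubulin sits in ring complexes that start new microtubules, mainly at the centrosome. Vertebrates have several alpha and beta genes whose proteins, called isotypes, differ mostly in their acidic tails and in the tissues that make them. In tumours the beta isotypes are studied because taxanes, used against prostate cancer, bind beta-tubulin in the microtubule wall.

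Promoter sequence is shown for TUBB6, TUBA1A, TUBB2B and TUBA4A, the members that passed the test between the short-telomere lines below. Each window holds the 250 bases before an annotated start site, from RefSeq on GRCh38.p14, written 5′ to 3′ on the gene's strand. Capitals mark 3 promoter motifs found on either strand. The core of the CCAAT box was searched as CCAAT, which reads ATTGG on the opposite strand. The core of the GC box was searched as GGGCGG, which reads CCGCCC there. The core of the TATA box was searched as TATAA, which reads TTATA there. TUBB6 has 2 annotated start sites, with windows at chr18:12307419-12307668 and chr18:12307991-12308240, both on the plus strand. The window of TUBA1A is chr12:49189081-49189330, that of TUBB2B chr6:3227654-3227903 and that of TUBA4A chr2:219253919-219254168, all on the minus strand.
TUBB6 first start: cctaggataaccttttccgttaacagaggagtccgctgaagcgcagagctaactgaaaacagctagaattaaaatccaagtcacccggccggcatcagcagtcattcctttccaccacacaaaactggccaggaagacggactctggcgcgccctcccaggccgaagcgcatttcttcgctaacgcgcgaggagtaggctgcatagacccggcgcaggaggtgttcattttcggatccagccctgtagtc
TUBB6 second start: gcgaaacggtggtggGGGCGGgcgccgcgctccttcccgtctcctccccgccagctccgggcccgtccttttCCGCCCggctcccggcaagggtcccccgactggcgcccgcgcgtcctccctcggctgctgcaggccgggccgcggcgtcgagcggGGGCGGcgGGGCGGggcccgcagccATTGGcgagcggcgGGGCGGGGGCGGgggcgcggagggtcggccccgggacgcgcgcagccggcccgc
TUBA1A: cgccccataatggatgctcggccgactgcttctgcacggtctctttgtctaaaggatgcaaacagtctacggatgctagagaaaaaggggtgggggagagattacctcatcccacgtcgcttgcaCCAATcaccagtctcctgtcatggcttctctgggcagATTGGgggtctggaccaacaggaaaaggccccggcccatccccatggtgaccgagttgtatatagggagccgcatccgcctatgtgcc
TUBB2B: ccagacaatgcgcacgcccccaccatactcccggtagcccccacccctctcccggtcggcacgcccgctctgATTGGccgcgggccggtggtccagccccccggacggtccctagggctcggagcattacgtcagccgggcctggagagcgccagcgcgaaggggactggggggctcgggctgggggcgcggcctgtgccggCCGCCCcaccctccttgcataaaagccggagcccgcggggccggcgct
TUBA4A: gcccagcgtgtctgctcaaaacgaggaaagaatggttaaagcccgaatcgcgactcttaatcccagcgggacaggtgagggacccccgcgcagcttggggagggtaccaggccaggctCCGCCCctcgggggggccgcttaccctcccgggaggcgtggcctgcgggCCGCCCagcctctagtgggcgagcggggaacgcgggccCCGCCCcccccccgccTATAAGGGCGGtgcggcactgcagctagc

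The windows differed in these letters. The first TUBB6 window held none of the motifs and had a GC content of 55.2%, while the second held 6 GGGCGG and 1 CCAAT at 83.6% GC. A pair of the 6 GGGCGG abut and form 1 run of capitals. TUBA1A held 2 CCAAT and TUBB2B held 1 CCAAT and 1 GGGCGG. TUBA4A held 4 GGGCGG and 1 TATAA, the TATAA running directly into a GGGCGG. Among 35116 windows of this length, 32.0% held CCAAT, 42.6% held GGGCGG and 18.9% held TATAA. These are matches of letters and not sites of binding.

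TUBB6 encodes the class V beta-tubulin, which many tissues make. Its centred signal was 0.68, 1.11, 0.58 and 0.70 in the LhTERTL_cre tumours and 0.71, 0.93, 0.74 and 0.63 in the LhTERTL tumours. It was -2.22, -2.10, -2.46 and -2.13 in the mock_cre tumours and -0.78, -0.58, -1.69 and -1.32 in the mock tumours. The long-telomere lines lay together and high, both short-telomere lines lay low, and mock_cre was lowest of all, with no overlap between long and short or between mock_cre and mock. The 8 long-telomere tumours averaged 0.76 ± 0.17 and the 8 short-telomere tumours -1.66 ± 0.70 (SD). Averaged over the matched pairs, the difference was 2.42 ± 0.13 log2 units (SE), or 5.35-fold, which stood at rank 10 of 20276 genes from the top. It was 2.99 ± 0.18 in LhTERTL_cre against mock_cre, or 7.96-fold, and 1.85 ± 0.18 in LhTERTL against mock, or 3.59-fold. Without the mock_cre tumours the difference between long and short was 1.85. Within the 5 arrays of high spike signal it was 2.64, and within the 11 of low signal 2.36.

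Between the short-telomere lines, TUBB6 averaged -2.23 ± 0.16 in mock_cre and -1.09 ± 0.50 in mock (SD, n = 4 each). It fell by 1.13 ± 0.18 log2 units (SE) in mock_cre, a 2.19-fold difference (limma, Benjamini-Hochberg adjusted p = 0.000323 over all genes). After quantile normalization it was -0.37 and no longer called (adjusted p = 0.354). It was -1.38 within the arrays of low spike signal and -0.49 within those of high signal, where mock has 1 array, its lowest tumour at -1.69. The mock_cre arrays also had the high 3'/5' ratio, and a fit that also held that ratio gave a difference of -0.96 (adjusted p = 0.0255).

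Between the long-telomere lines TUBB6 differed by 0.01 ± 0.18, LhTERTL_cre averaging 0.77 ± 0.23 and LhTERTL 0.75 ± 0.13 (adjusted p = 0.988). The tumours with and without exogenous hTERT overlapped. The gap between long and short was wider by 1.15 ± 0.26 in the cre+ lines than in the lines without Cre (adjusted p = 0.00783). By arithmetic nearly all of it is the low signal of mock_cre against mock, and it was 0.58 after quantile normalization (adjusted p = 0.333). In the fit that also held the 3'/5' ratio it was 0.97 (adjusted p = 0.0829).

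**Figure D1:**
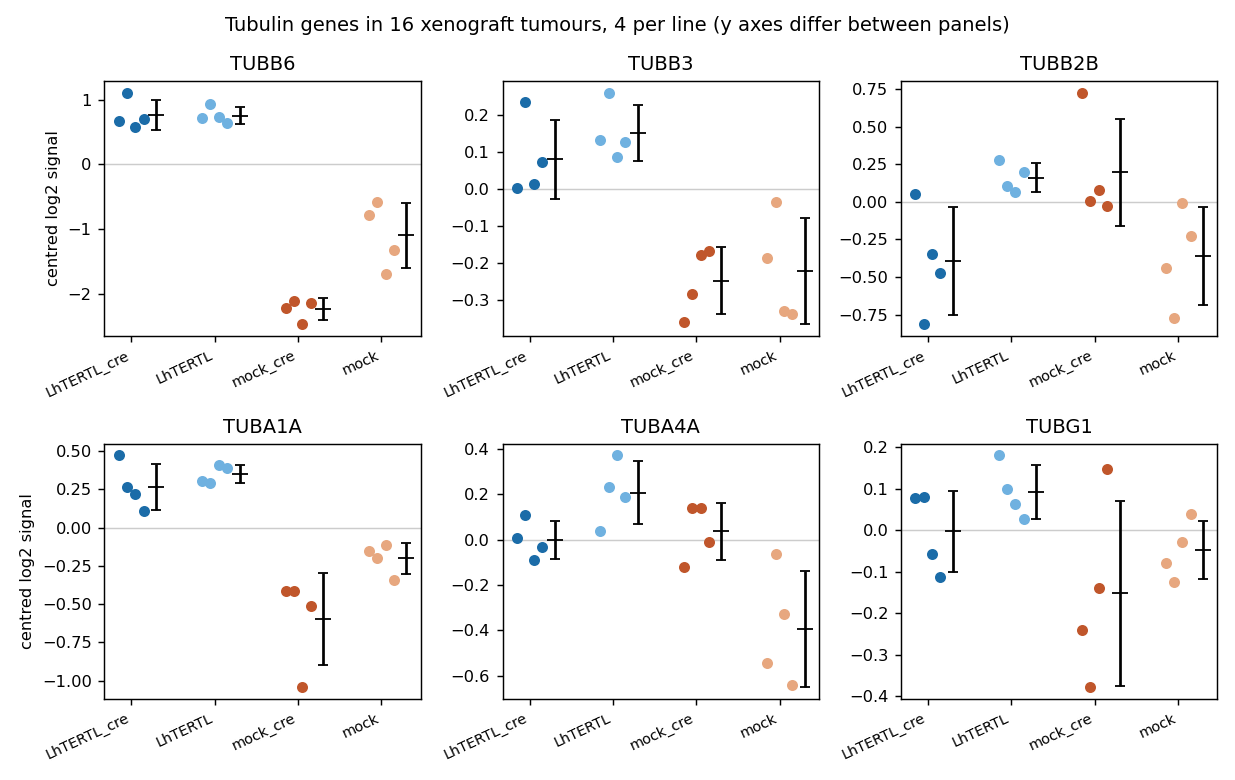
Centred log2 signal (y axis) of each chosen tubulin gene in the 4 tumours of each line (x axis), with the mean and SD of the line as a bar beside the points; y axes differ between panels. TUBB6 spans from -2.46 in a mock_cre tumour to 1.11 in an LhTERTL_cre tumour, while TUBG1 spans -0.38 to 0.18.

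TUBB3 encodes the class III beta-tubulin, a marker of neurons that is also found in some carcinomas. Its signal was 0.0027, 0.23, 0.014 and 0.072 in LhTERTL_cre and 0.13, 0.26, 0.086 and 0.13 in LhTERTL. It was -0.36, -0.29, -0.18 and -0.17 in mock_cre and -0.19, -0.035, -0.33 and -0.34 in mock. All long-telomere tumours lay above all short-telomere tumours, by a gap of 0.038, and the paired lines within each status overlapped. The long minus short difference was 0.35 ± 0.06 (SE), with 0.33 in the cre+ pair and 0.37 in the pair without Cre. No difference was detected between mock_cre and mock (-0.02 ± 0.08, adjusted p = 0.891), between LhTERTL_cre and LhTERTL (-0.07 ± 0.08, adjusted p = 0.774) or between the telomere differences of the pairs (-0.05 ± 0.11, adjusted p = 0.873).

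Both TUBB3 probe sets carry the suffix with which Affymetrix marks probes that may match other transcripts. Over the 16 arrays the profile of 1 of them lay at a root mean square difference of 0.061 and 0.068 log2 units from the probe sets of TUBB4B, a broadly expressed beta-tubulin. It lay at 0.116 from the other TUBB3 probe set. Whether the TUBB3 value holds signal of TUBB4B or of a further relative was not tested. None of 10 neuronal and neuroendocrine markers was called between long and short telomeres (0 at an unadjusted p under 0.05, limma), where 32.6% of all genes were called. Their mean ran from -0.058 to 0.00095 in LhTERTL_cre, -0.024 to 0.10 in LhTERTL, -0.090 to 0.030 in mock_cre and -0.021 to 0.084 in mock.

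TUBB2B encodes a class II beta-tubulin of the developing brain. Its signal was 0.055, -0.81, -0.34 and -0.47 in LhTERTL_cre and 0.28, 0.10, 0.068 and 0.20 in LhTERTL. It was 0.73, 0.0057, 0.081 and -0.025 in mock_cre and -0.44, -0.78, -0.0057 and -0.23 in mock. LhTERTL and mock_cre were high and LhTERTL_cre and mock low, so that long and short telomeres overlapped widely and differed by less than the error (-0.03 ± 0.13). The pairs ran opposite ways, at -0.59 ± 0.19 in LhTERTL_cre against mock_cre and 0.52 ± 0.19 in LhTERTL against mock. That contrast between the pairs was -1.11 ± 0.26 (adjusted p = 0.0112), and -1.04 in the fit holding the 3'/5' ratio (adjusted p = 0.0782).

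Between the short-telomere lines TUBB2B was higher in mock_cre, by 0.56 ± 0.19 (adjusted p = 0.0440), the tumours overlapping. The call was lost in 14 of 27 other settings. It ended without mock_cre tumour 1 (0.38, adjusted p = 0.153) or 3 (0.60, adjusted p = 0.0623). It also ended without mock tumour 1 (0.53, adjusted p = 0.103), 2 (0.42, adjusted p = 0.155) or 4 (0.60, adjusted p = 0.0618), without any 1 of the LhTERTL tumours (adjusted p = 0.0511 to 0.0542) or without LhTERTL_cre tumour 3 (adjusted p = 0.0538). Mock_cre tumour 1 stood at 0.73, far above the other mock_cre tumours. Between the long-telomere lines the difference was -0.56 ± 0.19 with no overlap of the tumours, yet it did not pass the adjusted test (adjusted p = 0.122). It passed without LhTERTL_cre tumour 1 (-0.71, adjusted p = 0.0426). The single TUBB2B probe set also carries the suffix for possible matches to other transcripts.

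TUBA1A encodes an alpha-tubulin abundant in developing neurons and present in most dividing cells. Its signal was 0.47, 0.26, 0.22 and 0.11 in LhTERTL_cre and 0.31, 0.29, 0.41 and 0.39 in LhTERTL. It was -0.42, -0.41, -1.04 and -0.51 in mock_cre and -0.16, -0.20, -0.11 and -0.34 in mock. The order of the lines matched that of TUBB6 in outline, with the long-telomere lines high, mock lower and mock_cre lowest, and neither long and short nor mock_cre and mock overlapped. Its single probe set has the suffix that Affymetrix gives to probes shared by several transcripts, and whether it holds signal of TUBA1B or TUBA1C was not tested. The long minus short difference was 0.71 ± 0.08, or 1.63-fold, with 0.86 ± 0.12 in the cre+ pair and 0.55 ± 0.12 in the pair without Cre.

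Between the short-telomere lines TUBA1A fell by 0.40 ± 0.12 in mock_cre, 1.32-fold (adjusted p = 0.0222). The call ended after quantile normalization (-0.22, adjusted p = 0.123) and, narrowly, without mock tumour 1 (-0.38, adjusted p = 0.0599), without mock tumour 3 (-0.37, adjusted p = 0.0535) or without mock_cre tumour 3 (-0.25, adjusted p = 0.0577), which at -1.04 was the lowest of all. Once the 3'/5' ratio was in the fit it was -0.53 (adjusted p = 0.0451). Between the long-telomere lines TUBA1A differed by -0.08 ± 0.12 (adjusted p = 0.839), and the telomere differences of the pairs differed by 0.31 ± 0.16 (adjusted p = 0.272).

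TUBA4A encodes the alpha-tubulin whose gene leaves out the terminal tyrosine, and is known from platelets and neurons. Its signal was 0.0096, 0.11, -0.089 and -0.032 in LhTERTL_cre and 0.039, 0.23, 0.37 and 0.19 in LhTERTL. It was -0.12, 0.14, 0.14 and -0.0096 in mock_cre and -0.55, -0.063, -0.33 and -0.64 in mock. Mock alone was low, and the other 3 lines overlapped. The long minus short difference of 0.28 ± 0.08 was thus 0.60 ± 0.11 in LhTERTL against mock and -0.04 ± 0.11 in LhTERTL_cre against mock_cre.

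The telomere differences of TUBA4A in the pairs differed by -0.64 ± 0.15 (adjusted p = 0.0119), a call that ended once the 3'/5' ratio was in the fit (-0.61, adjusted p = 0.0735). Between the short-telomere lines TUBA4A rose by 0.43 ± 0.11 in mock_cre, 1.35-fold (adjusted p = 0.00871), with 1 mock tumour inside the mock_cre range. With the ratio in the fit that was 0.40 (adjusted p = 0.114). Between the long-telomere lines the difference was -0.21 ± 0.11 (adjusted p = 0.373). Of 6 platelet markers none was called in mock_cre against mock (1 at an unadjusted p under 0.05, limma), where 19% of all genes were called. Their mean ran from 0.021 to 0.34 in mock_cre and from -0.19 to 0.22 in mock. That shift rested on PPBP, at 1.21 in mock_cre against mock, while the other platelet markers lay between -0.10 and 0.11.

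TUBG1 encodes the main gamma-tubulin. Its signal was 0.078, 0.080, -0.059 and -0.11 in LhTERTL_cre, 0.18, 0.0998, 0.064 and 0.028 in LhTERTL, -0.24, -0.38, -0.14 and 0.15 in mock_cre and -0.078, -0.13, -0.028 and 0.039 in mock. All 4 lines overlapped, and the mock_cre tumours were the most spread. The long minus short difference was 0.15 ± 0.06, with 0.15 ± 0.09 in the cre+ pair and 0.14 ± 0.09 in the pair without Cre. TUBG1 did not pass the test in mock_cre against mock (-0.10 ± 0.09, adjusted p = 0.512) in LhTERTL_cre against LhTERTL (-0.10 ± 0.09, adjusted p = 0.713) or in the difference between the pairs (0.01 ± 0.13, adjusted p = 0.983).

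Counted over the 6 genes, 2 rose (TUBB2B and TUBA4A) and 2 fell (TUBB6 and TUBA1A) in mock_cre against mock, where 19% of all genes were called, 9% higher and 10.1% lower. Their median difference was -0.06, beside -0.02 over all genes. The 4 calls became 2 without mock tumour 1 or without mock_cre tumour 3, and 2 with the 3'/5' ratio in the fit, where both rises were lost. In LhTERTL_cre against LhTERTL 0 of 6 passed, against 3.24% of all genes, although 1 of them, TUBB2B, had an unadjusted p under 0.05 in limma. The telomere differences of the pairs differed in 3 of 6, TUBB6 upward and TUBB2B and TUBA4A downward, against 10.6% of all genes, 4.99% upward and 5.63% downward. With the ratio in the fit the count of unequal pairs was 0 of 6. Every mock_cre array had a higher ratio (0.40 to 1.21) than any array of the other lines (at most 0.30, in mock). A fit holding the ratio therefore can hardly tell it apart from the mock_cre line, and the part of RNA quality in the lost calls was not tested.

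**Figure D2:**
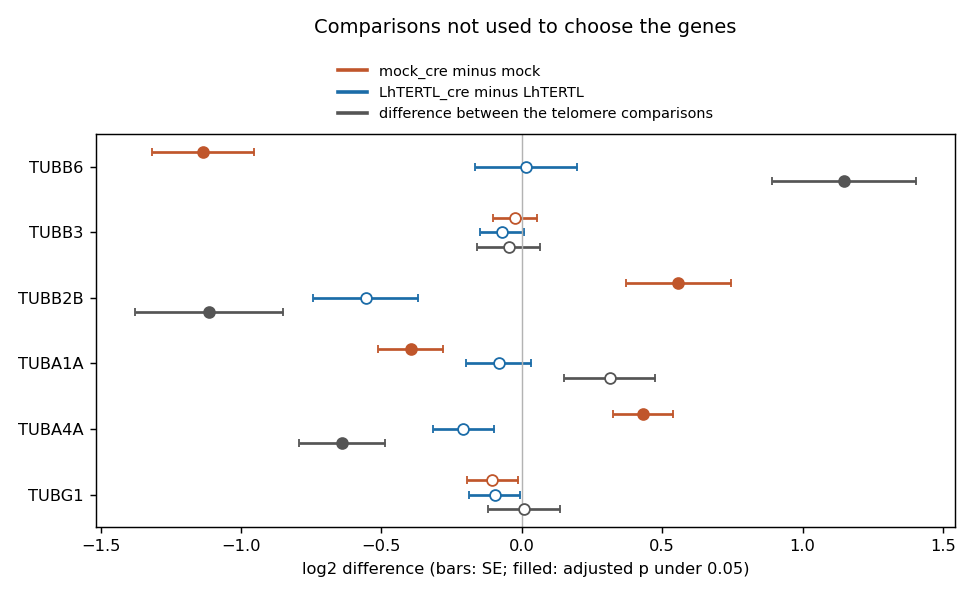
Log2 difference (x axis, with SE bars) of the 6 genes (y axis) in mock_cre minus mock, in LhTERTL_cre minus LhTERTL and in the difference between the telomere comparisons, which is the cre+ pair minus the pair without Cre. Filled points have an adjusted p under 0.05; all 6 points of LhTERTL_cre minus LhTERTL are open, and TUBB6 stands at -1.13, 0.01 and 1.15.

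Among the tubulins TUBB6, chosen for it, had the widest long minus short difference. Of 14 other tubulin genes measured, 8 rose and 1 fell in the long-telomere tumours (limma, adjusted p under 0.05), where 32.6% of all genes were called, 18.5% higher and 14.1% lower. Their median was 0.26, against 0.02 over all genes, and their range was -0.28 to 0.35. TUBB, the main constitutive beta-tubulin, rose by 0.33 ± 0.07 (adjusted p = 0.000796). The ubiquitous alpha-tubulins TUBA1B and TUBA1C rose by 0.31 ± 0.04 (adjusted p = 2.72e-05) and 0.30 ± 0.05 (adjusted p = 7.17e-05). The probe sets of TUBA1B disagreed: 5 that may match other transcripts gave 0.32 to 0.38, and the 1 without that suffix gave 0.099 (adjusted p = 0.480). Both TUBA1C probe sets carry the suffix. The testis alpha-tubulins TUBA3C (0.27) and TUBA3D (0.31), the alpha-like TUBAL3 (0.35) and the beta genes TUBB4B (0.30) and TUBB2A (0.24) rose as well. Every probe set of TUBA3C, TUBA3D and TUBB4B carries the suffix too, so these rises may not belong to separate genes. TUBG2, the second gamma-tubulin, fell by 0.28 ± 0.06 (adjusted p = 0.00165). The brain gene TUBB4A (-0.05), the platelet gene TUBB1 (0.08), TUBA8 (0.06) and the centriolar delta- and epsilon-tubulins TUBD1 (-0.18) and TUBE1 (0.11) did not pass the test.

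**Figure D3:**
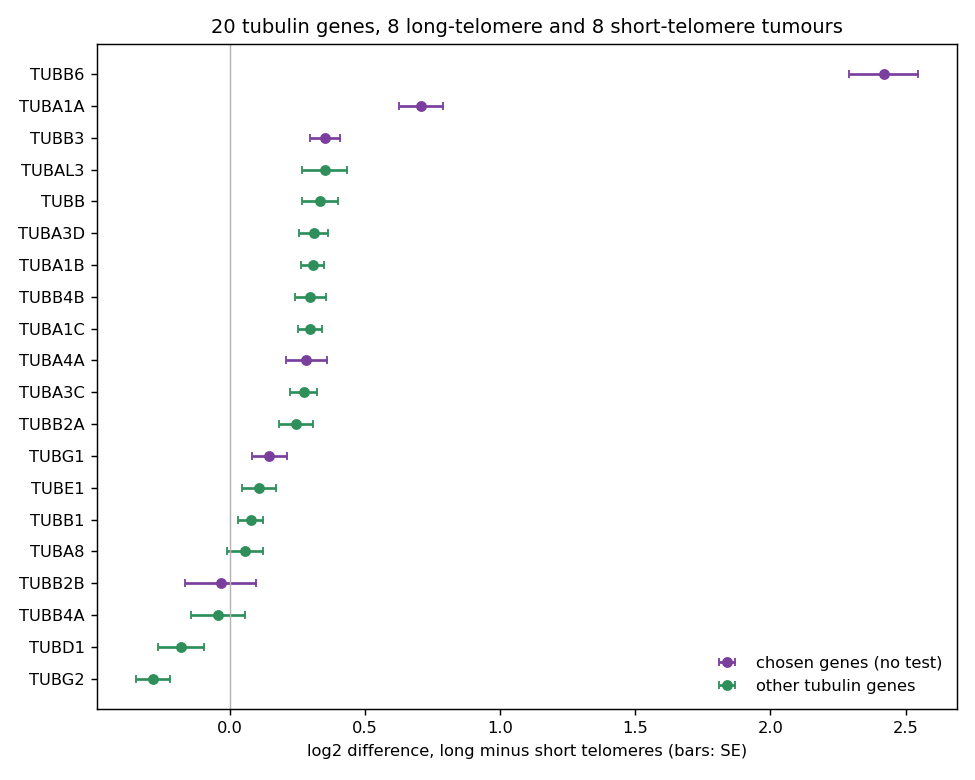
Log2 difference between 8 long-telomere and 8 short-telomere tumours (x axis, with SE bars) for 20 tubulin genes (y axis), in order of size. TUBB6 stands at 2.42 and TUBA1A at 0.71, while the other tubulins outside the chosen 6 lie between -0.28 and 0.35.

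Every long-telomere tumour lay above every short-telomere tumour for TUBB6, TUBB3 and TUBA1A and for 4 of the 14 other tubulins, TUBA1B, TUBA1C, TUBA3C and TUBA3D; 3.91% of all genes did so. In TUBA1B the long-telomere tumours ran from 0.11 to 0.27 in LhTERTL_cre and 0.087 to 0.22 in LhTERTL, against -0.27 to -0.11 in mock_cre and -0.10 to -0.023 in mock. With the 3'/5' ratio in the fit 6 of the 14 rose and 0 fell, but the share over all genes in that fit was not counted. None of the 14 passed the test in mock_cre against mock (1 at an unadjusted p under 0.05, limma), where 19% of all genes were called. Nor did any pass in LhTERTL_cre against LhTERTL (1 unadjusted), against 3.24% of all genes, or in the difference between the pairs (2 unadjusted), against 10.6%. Taken by pair, 6 of the 14 rose and 1 fell in LhTERTL_cre against mock_cre, where 28% of all genes were called (15% higher, 13% lower). In LhTERTL against mock 6 rose and 1 fell, where 20.3% were called (12.3% higher, 7.99% lower). Of the 27 probe sets of these genes 14 carry the suffix for possible matches to other transcripts, and whether these genes share signal was not tested.

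The neighbours of TUBB6 on chromosome 18, in RefSeq gene order (GRCh38.p14), are given as a description. Since TUBB6 was chosen for its difference, smaller ones among them follow from the choice. In the 10 measured genes nearest TUBB6, 5 on each side, long minus short ran from -0.26 to 0.34. AFG3L2 (0.29), CEP76 (0.34), IMPA2 (0.19) and PSMG2 (0.18) rose and MPPE1 (-0.26) fell, where 18.5% of all genes rose and 14.1% fell. In mock_cre against mock, where 19% of all genes were called, the 10 genes ran from -0.27 to 0.23, the smallest adjusted p being 0.111 (limma). TUBB3 lies near the end of chromosome 16, with 7 measured genes beyond it. Of its 10 nearest measured genes 2 rose in the long-telomere tumours, FANCA by 0.18 and DBNDD1 by 0.23, and 0 fell. That count is near the 18.5% of all genes that rose.

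**Figure D4:**
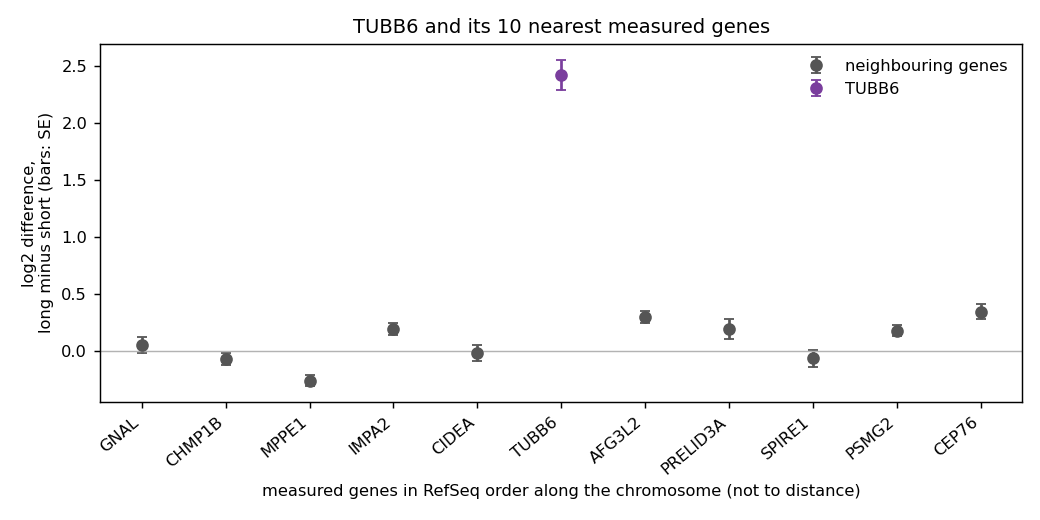
Log2 difference between long-telomere and short-telomere tumours (y axis, with SE bars) for TUBB6 and the 5 measured genes on either side in RefSeq order (x axis, not to distance). TUBB6, chosen for this difference, stands at 2.42, and the neighbours lie between -0.26 and 0.34.

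The alpha genes TUBA1A, TUBA1B and TUBA1C are neighbours on chromosome 12, and so are TUBB2A and TUBB2B on chromosome 6. On chromosome 12 all 3 were higher in long-telomere tumours, TUBA1A by 0.71 as against 0.31 and 0.30, and only TUBA1A of the 3 passed the test in mock_cre against mock (TUBA1B at -0.13, adjusted p = 0.159, and TUBA1C at -0.13, adjusted p = 0.172). Whether TUBA1A differed from its neighbours in that comparison was not tested. TUBB2A and TUBB2B were at 0.18 and -0.59 in LhTERTL_cre against mock_cre, at 0.31 and 0.52 in LhTERTL against mock and at 0.16 and 0.56 in mock_cre against mock. The difference between these 2 genes was not tested.

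Across the 16 arrays the genes whose centred profile lay nearest that of TUBB6, by root mean square difference, were NEFL, a neurofilament protein (0.51), TFF3, a trefoil factor (0.52), DSC2, a desmosomal cadherin (0.57), AK5, an adenylate kinase (0.57) and UTS2, a urotensin peptide (0.58). The TUBB6 profile itself lay 1.38 from 0. NEFL averaged 0.30 in LhTERTL_cre, 0.28 in LhTERTL, -1.96 in mock_cre and -0.48 in mock. Like TUBB6, these 5 genes were low in mock_cre, at -2.66 to -1.48, and closer to 0 in mock. This likeness follows from their choice as the nearest profiles. Among the chosen tubulins TUBA1A lay nearest TUBB6, at 1.02, and TUBB2B farthest. TUBB3 and TUBG1 lay nearest each other, at 0.17, but their own profiles lay only 0.21 and 0.15 from 0. This closeness therefore does not show a shared pattern.

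Genes that act on tubulin were counted by list. Of 22 measured genes of tubulin folding 10 rose and 1 fell in the long-telomere tumours, where 18.5% of all genes rose and 14.1% fell, with a median of 0.11 against 0.02 over all genes. TCP1 and CCT7, subunits of the chaperonin that folds tubulin, rose by 0.59 ± 0.06 (adjusted p = 4.22e-07) and 0.42 ± 0.06. The prefoldin subunit VBP1 rose by 0.46 ± 0.04 and the tubulin cofactor TBCB by 0.49 ± 0.06. In mock_cre against mock 1 folding gene rose and 7 fell, where 9% of all genes rose and 10.1% fell, with a median of -0.17 against -0.02 over all genes. Those that fell included TCP1 (-0.36), VBP1 (-0.38) and TBCB (-0.39).

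Of 21 genes of the gamma-tubulin ring and augmin, the complexes that start and branch microtubules, 10 rose and 1 fell, beside the same 18.5% and 14.1% of all genes, with a median of 0.08. The augmin subunits HAUS1 (0.67 ± 0.06, adjusted p = 5.47e-07), HAUS4 (0.52 ± 0.09) and HAUS8 (0.40 ± 0.07) rose, as did TUBGCP3 (0.30 ± 0.05), a ring subunit that binds gamma-tubulin. Of 27 enzymes that modify tubulin 6 rose and 2 fell, with a median of 0.03, a share near the 32.6% called over all genes. The 8 calls became 5 without mock 4, LhTERTL 1, LhTERTL 3, mock_cre 2 or LhTERTL_cre 1. TPGS2, of the polyglutamylase complex, and ATAT1, the alpha-tubulin acetyltransferase, each rose by 0.43. The carboxypeptidases AGBL3 and AGBL2 fell, by 0.49 and 0.39.

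Of 49 microtubule-associated and severing proteins 16 rose and 10 fell, where 32.6% of all genes were called, with a median of 0.01. The plus-end protein MAPRE1 rose by 0.38 ± 0.04, the katanins KATNA1 and KATNAL1 by 0.40 ± 0.05 and 0.41 ± 0.05, and MAPT, which encodes tau, fell by 0.39 ± 0.05. Without the mock_cre tumours 8 of the 49 rose and 5 fell, where 21.5% of all genes were called. The widest swing between lines was that of SLAIN1, which aids microtubule growth and was picked out after its values were seen. It was -1.62 ± 0.30 in LhTERTL_cre against mock_cre (adjusted p = 0.000560) and 0.66 ± 0.30 in LhTERTL against mock (adjusted p = 0.143), a difference of -2.28 ± 0.42 (adjusted p = 0.00251).

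**Figure D5:**
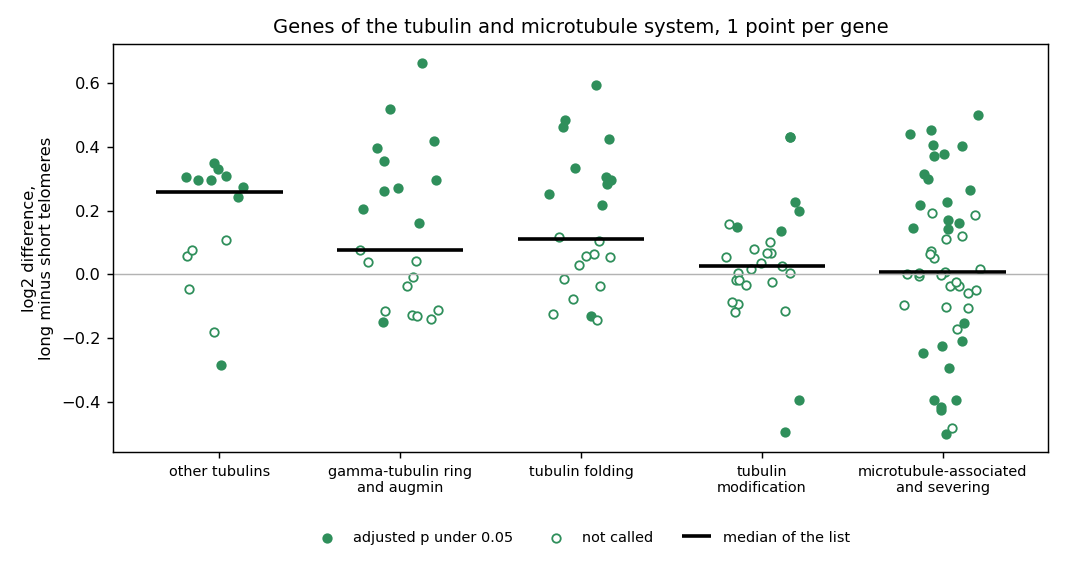
Log2 difference between long-telomere and short-telomere tumours (y axis) for genes of 5 lists (x axis), 1 point per gene with the list's median as a bar. Filled points have an adjusted p under 0.05, and the medians run from 0.01 to 0.26. TUBB6, chosen for its difference of 2.42, is not drawn.

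Markers of other cells were called in smaller shares than the 32.6% of all genes called between long and short telomeres. Between long and short telomeres COL1A1 (0.30) rose among 10 fibroblast markers, PECAM1 (0.39) rose and KDR (-1.18) fell among 8 endothelial markers, AIF1 (-0.26) fell among 7 macrophage markers and PPBP (-1.09) fell among 6 platelet markers. Of 6 muscle markers 0 were called (0 at an unadjusted p under 0.05, limma). In LhTERTL_cre against LhTERTL, where 3.24% of all genes were called, 2 of the 8 endothelial markers rose, KDR (0.99) and TIE1 (0.38). COL3A1 (-0.64) fell among the 10 fibroblast markers. As the probes are human and the host is a mouse, these calls do not measure the host cells of the tumours. Among 6 genes of prostate carcinoma cells VIM (0.44) and KRT19 (0.35) rose between long and short. In mock_cre against mock, where 19% of all genes were called, EPCAM (1.66), CDH1 (0.91) and KRT18 (0.91) rose and VIM (-0.61) and KRT19 (-0.35) fell. The mean of this list ran from -0.48 to 0.12 in LhTERTL_cre, 0.054 to 0.20 in LhTERTL, -0.069 to 0.31 in mock_cre and -0.50 to -0.15 in mock. The part of these shifts in the tubulin differences was not tested.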

How the data were processed

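Total RNA of 16 tumours was labelled from 100 ng per the labels' protocols and measured on Affymetrix arrays. The authors' deposited values are log2 signals made with RMA, per the submitters' processing notes. Each probe set is centred on its median over the 16 arrays, as the values show. The array type, the software, its version and the genome build are not given in the sources used here. The 2 deposited tables hold the same values. Of 54675 probe sets, 62 were controls and 41476 named 1 gene, 961 several and 12173 none. Probe sets naming 1 gene were averaged, 10 with clashing symbols were left out, and 20276 genes remained, of which 19249 matched RefSeq by Entrez ID and 3313 were renamed.

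In R 4.3.3, limma 3.58.1 fitted a mean for each line, with contrasts, moderated variances and two-sided Benjamini-Hochberg adjustment over all genes at 0.05. The contrasts were LhTERTL_cre minus mock_cre, LhTERTL minus mock, their mean and their difference, mock_cre minus mock, and LhTERTL_cre minus LhTERTL. The members and gene lists were chosen with earlier results of these data known. Besides the members, the text names every other measured tubulin, the 4 or fewer genes of a list that had its smallest adjusted p between long and short telomeres, the 5 genes nearest TUBB6, and called neighbours of TUBB6 and TUBB3. Named marker genes and SLAIN1 were chosen after their values were seen. TUBA3E, TUBB8 and PDCL3 were not measured by a probe set naming 1 gene. The planned filter on dim genes could not be run, since no level remains. Values within arrays of high or low spike signal were an alternative chosen after seeing the data. The fit was tested on simulated data. Python 3.11.15 with numpy 2.4.6, pandas 2.3.3 and matplotlib 3.10.9 drew the figures and wrote tables. Promoter windows came from RefSeq on GRCh38.p14, where all 6 members had one.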

Additional observations from a re-analysis of the deposited data

Results flagged for a closer look

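Far-lying tumours and unequal pairs were looked for among 36 named genes. These were the members, the other measured tubulins and the genes picked from the other lists by smallest adjusted p. SLAIN1, the marker genes, the neighbours of TUBB6 and TUBB3 and the genes nearest TUBB6 were not among them. In 10 of 144 sets of 4 tumours, 1 tumour lay far from the other 3 of its line by Dixon's criterion, which chance alone passes in about 1 of 20 sets. They were TUBB2B in mock_cre 1 (0.73), TUBA1A in mock_cre 3 (-1.04), TUBA1C in mock 3 (-0.22), TUBA3D in mock 4 (-0.34) and TUBA8 in LhTERTL_cre 1 (-0.074). The others were HAUS4 in mock 3 (-0.17), TCP1 in mock 2 (-0.26), TPGS2 in LhTERTL_cre 4 (0.019), AGBL3 in mock_cre 1 (0.86) and KATNAL1 in LhTERTL_cre 2 (0.29).

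By limma at an adjusted p under 0.05, the telomere differences of the pairs differed in 10.6% of all genes. Among these 36 genes they differed in 9. Those named from the lists had been picked for a small adjusted p between long and short telomeres. The telomere difference was larger in the cre+ pair by 1.15 for TUBB6, 0.58 for HAUS4, 0.35 for TCP1, 0.41 for VBP1, 0.34 for MAPRE1 and 0.50 for KATNA1. It was lower in the cre+ pair for TUBB2B (-1.11), TUBA4A (-0.64) and AGBL3 (-0.45). The mock_cre arrays, with the high 3'/5' ratio, enter all 9. Genes outside the 36 that also differed included SLAIN1 (-2.28) and the markers EPCAM (-2.52), CDH1 (-1.65), KRT18 (-1.09), VIM (0.85) and COL1A1 (-0.53).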

How the results depend on the processing

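The difference of TUBB6 between long and short telomeres was 2.32 to 2.50 with each tumour left out and 1.85 without the mock_cre tumours. In mock_cre against mock, 4 of the 6 members passed, against 2 after quantile normalization (2 higher), 2 in the 8 arrays alone, 2 at an adjusted p under 0.01, 2 in the fit holding the 3'/5' ratio (2 lower) and 2 to 4 with each tumour left out. In LhTERTL_cre against LhTERTL 0 passed, against 1 with array weights and 0 to 1 with each tumour left out. In the difference between the pairs 3 passed, and 3 in every leave-one-out fit, 1 at an adjusted p under 0.01 and 0 with that ratio in the fit. The only member to gain a call was TUBB2B, in LhTERTL_cre against LhTERTL. It did so with array weights (-0.60, adjusted p = 0.0325) and without LhTERTL_cre tumour 1 (-0.71).

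Among list genes called between long and short, modification genes numbered 8, against 5 to 8 with a tumour left out, 4 at an adjusted p under 0.01 and 4 with line as a random block (correlation 0.092). Microtubule-associated genes numbered 26, against 24 to 27, 13 without mock_cre, and 17 in both of the last settings. The other tubulins (9 to 10), the gamma ring list (10 to 11) and the folding list (9 to 12) moved less with a tumour left out.

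Signs turned only where no call stood. TUBB3 in mock_cre against mock was 0.061 after quantile normalization, 0.015 with the 3'/5' ratio in the fit and between -0.064 and 0.038 with 1 tumour left out, and its difference between the pairs was 0.041 by the probe set of largest spread. TUBB6 in LhTERTL_cre against LhTERTL ran from -0.10 to 0.075 with 1 tumour left out. TUBG1's difference between the pairs was -0.050 after quantile normalization, -0.032 with array weights and from -0.067 to 0.11 with 1 tumour left out. The causes were not tested.

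Replicate numbers did not pair the tumours: of 24 pairs of equal number, correlations ran from -0.33 to 0.37, 9 exceeded 0.1, and the best match of 5 of 16 arrays had the same number. With the replicate block the members called were again 4, 0 and 3, and TUBB6 differed by -1.13 in mock_cre against mock (adjusted p = 7.55e-05) and by 2.42 between long and short; the modification list gave 6 calls. With 4 tumours per line and centred signals, neither absence of expression nor signal over background could be judged.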
